A study of Mus musculus with 6 samples.

Results

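Vgll cofactors and Tead factors were followed in mouse hearts. The 7 genes, of 19053 on the array, were Vgll2, Vgll3, Vgll4, Tead1, Tead2, Tead3 and Tead4, read by every probe of the deposited table that carries their symbol. This gave 16 of the table's 45281 probes: 3 for Vgll2, 3 for Vgll3, 1 for Vgll4, 3 for Tead1, 1 for Tead2, 1 for Tead3 and 4 for Tead4. Vgll2 was chosen by its level in the transgenic arrays of these same data, so its difference between genotypes is described below and not tested. The other 6 genes were added as its relatives and binding partners.

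The 6 arrays (Illumina bead arrays, labelled with biotin) held total RNA of hearts of mice on the FvB background. The samples are labelled as 8 weeks old, while the series' own design text counts the age in years. Hearts were taken 3 weeks after surgery. There were 2 arrays of JMJD2A-transgenic mice after thoracic aortic constriction (TAC, a band on the aorta that loads the left ventricle with pressure) and 1 array of JMJD2A-transgenic mice after sham surgery. Of wild-type mice there were 2 arrays after TAC and 1 after sham surgery. JMJD2A, encoded by Kdm4a, removes methyl groups from lysines of histone H3. The labels call the transgene heart specific, without naming its promoter or founder lines in what was used here. Nothing there says whether an array holds RNA of 1 animal or of a pool, so errors and p-values measure the spread between these arrays, part of which may be technical.

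TEAD proteins bind DNA through a shared TEA domain, at the MCAT element of many muscle genes among other sites, and carry little activating power of their own. They act through partners that dock on the same face of the protein: the coactivators YAP and TAZ, which the Hippo kinases hold out of the nucleus, or the vestigial-like (VGLL) cofactors. In mouse muscle VGLL2 is known as a skeletal muscle cofactor, VGLL4 as a competitor of YAP for TEAD, and TEAD1 as a factor needed for heart growth and contraction.

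Values are log2 intensities. Probes are bead-bound oligonucleotides, and a level on one probe cannot be set against that of another. The median array intensity was 56.3 to 56.4, and a gene was tested if its brightest probe averaged above 58.7 (5.88 on the log2 scale), the middle of all probes with 1 gene symbol. By this rule 6 of the 7 members were tested and Tead3 was not. Array pairs correlated at r = 0.984 to 0.994 over all probes, and the log2 difference between the TAC arrays of a genotype had an SD of 0.306 in transgenic and 0.200 in wild-type mice. The tested Kdm4a probe lay at 6.45 to 6.75 on all 6 arrays (transgenic minus wild type 0.01 ± 0.12, SE). A second Kdm4a probe stood at 6.86 and 6.32 in transgenic TAC and 7.03 in transgenic sham arrays, against 6.40 to 6.49 in wild-type arrays. On it transgenic TAC 2 was the lowest of all arrays. Since the labels do not say which sequence the transgene carries, these probes do not check the genotype labels. Xist, the RNA that silences an X chromosome in females, read 5.41 in transgenic sham and 5.38 in wild-type TAC 2, against 10.36 to 11.03 elsewhere, and sex is not among the labels. The cardiomyocyte marker list had 9 of 10 genes on the array, all above the filter, and their summed intensity was 100971 to 109835 in transgenic and 101799 to 103465 in wild-type arrays. Bright genes such as Myl2, Mb and Myh6 carried most of that sum, so it says little of the dimmer ones. Among these, Ryr2 (-0.28 ± 0.11) and Pln (0.37 ± 0.13) differed in opposite directions between genotypes, with none of the 9 past the test used below.

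Vgll2 was higher in every transgenic array than in every wild-type array on all 3 of its probes. On the brightest, it stood at 9.20 and 9.62 in transgenic TAC and 8.40 in transgenic sham arrays, against 7.04 and 6.65 in wild-type TAC and 6.31 in wild-type sham arrays. On the linear scale these were intensities of 338 to 785 in transgenic and 79.2 to 132 in wild-type arrays. The lowest transgenic array lay well above the highest wild-type one, and within each genotype the sham array was the lowest. The difference between genotypes over both surgeries was 2.41 ± 0.19 (SE, 3 transgenic against 3 wild-type arrays, 5.31-fold), a value that served to choose the gene. It was 2.57 between the TAC groups and 2.09 between the sham arrays, and ranged from 2.25 to 2.57 with any 1 array left out. Background was not subtracted, so the fold understates the change of a probe this near to it in wild type. With a constant of 14.8 taken off as background, the difference was 2.60. That constant was a choice, below the lowest intensity of 30.8, and the value depends on it.

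The second Vgll2 probe gave the same picture, at 9.22 and 9.43 in transgenic TAC and 8.34 in transgenic sham arrays, against 6.81 and 6.47 in wild-type TAC and 6.05 in wild-type sham arrays. Its difference between genotypes was 2.56. The third was far dimmer, at 6.58 and 6.50 in transgenic TAC and 6.17 in transgenic sham arrays, against 5.99 and 5.93 in wild-type TAC and 5.82 in wild-type sham arrays. Its order of arrays was nearly that of the others, but its difference was only 0.50, and it lay near the filter in wild-type arrays. All 3 probes are annotated to the same RefSeq transcript of Vgll2. From high to low, the groups on each probe ran transgenic after TAC, transgenic after sham, wild type after TAC and wild type after sham. On the brightest probe the steps between neighbours were 1.01, 1.56 and 0.54, beside a spread of 0.42 between the transgenic TAC arrays and of 0.39 between the wild-type TAC arrays. A sham group of 1 array has no spread of its own.

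**Figure D1:**
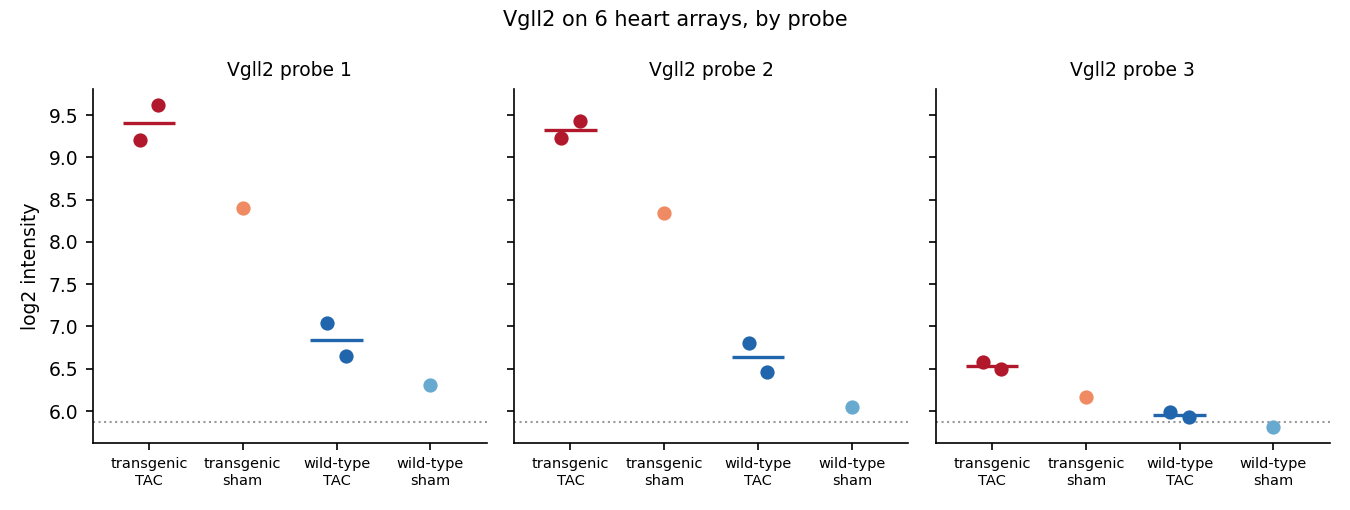
Log2 intensity of the 3 Vgll2 probes (y axis) by group (x axis), 1 point per array, with a bar at the mean of the groups of 2 arrays and a dotted line at the intensity filter (5.88). On the brightest probe the 3 transgenic arrays lie between 8.40 and 9.62 and the 3 wild-type arrays between 6.31 and 7.04.

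The bases just before the Vgll2 start site are shown because this gene carried the widest difference of the family. They come from RefSeq (GRCm38.p6) and were searched for CATTCC, the core of the MCAT element that TEAD proteins bind, and for CANNTG, the general E-box pattern. Myogenic factors bind some forms of CANNTG, and other factors bind it too, so a match does not point to myogenic factors. CATTCC was read on both strands, so that GGAATG counts as well, and CANNTG reads the same on both. Over all 32851 windows of 250 bases before a start, 12.6% held CATTCC and 66.2% held CANNTG. The Vgll2 window (chr10:52022252-52022501, + strand) held no CATTCC and 1 CANNTG, given in capitals.
Vgll2: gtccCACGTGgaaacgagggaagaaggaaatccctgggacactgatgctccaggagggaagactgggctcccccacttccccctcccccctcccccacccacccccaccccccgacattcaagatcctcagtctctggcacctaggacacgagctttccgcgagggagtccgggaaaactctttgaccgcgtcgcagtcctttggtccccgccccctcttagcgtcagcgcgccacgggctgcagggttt
Windows were found for 5 of the 7 members (Vgll2, Vgll3, Vgll4, Tead2 and Tead3), with 3 alternative starts for Tead3. CATTCC or its reverse stood in 4 of the 7 windows: those of Vgll3 and Vgll4 and 2 of those of Tead3. The sites below run 5′ to 3′ on the strand of the gene, with the match in capitals. Their places are chr16:65815114-65815143 for Vgll3 (+ strand), chr6:114969268-114969297 for Vgll4 (- strand) and chr17:28350970-28350999 for Tead3 (- strand). The Vgll4 place lies inside the annotated gene (chr6:114860621-114970007), so its window stands before an inner start.
Vgll3: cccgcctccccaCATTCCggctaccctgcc
Vgll4: cgagtggggtggGGAATGctgagaaatgcc
Tead3: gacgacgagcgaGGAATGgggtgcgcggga
The first base of the match lay 63 bases before the start in Vgll3 (position -63), at -82 in Vgll4 and at -182 in Tead3. A second Tead3 window held 2 further matches, at -123 and -114, which lie inside the annotated gene and are not printed. A match of letters does not show that a factor binds there.

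Vgll3, a relative of VGLL2 known from fibroblasts and muscle progenitors, lay higher in transgenic TAC arrays than elsewhere. Its brightest probe stood at 6.92 and 6.84 in transgenic TAC and 6.44 in transgenic sham arrays, against 6.46 and 6.28 in wild-type TAC and 6.36 in wild-type sham arrays. The genotypes overlapped, since transgenic sham lay below wild-type TAC 1. The difference of 0.36 ± 0.13 did not pass the test (limma adjusted p = 0.305, interval 0.07 to 0.65). The second Vgll3 probe, below the filter, had its highest values in the transgenic TAC arrays as well, at 5.66 and 5.63, against 5.45 in transgenic sham and 5.36 to 5.47 in wild-type arrays. The third Vgll3 probe lay at 5.20 to 5.46, near the bottom of the array, with a difference of -0.03.

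Vgll4 had 1 probe, at 7.62 and 7.88 in transgenic TAC and 7.69 in transgenic sham arrays, against 7.83 and 7.77 in wild-type TAC and 7.44 in wild-type sham arrays. The arrays were intermixed, with wild-type sham lowest. The difference between genotypes was 0.05 ± 0.15 (adjusted p = 0.944), and its 95% interval of -0.29 to 0.39 leaves room for a change of either sign. Its sign turned in the TAC arrays alone (-0.05).

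Tead1, on its brightest probe, was higher in each transgenic array than in each wild-type array. It stood at 11.93 and 11.72 in transgenic TAC and 11.96 in transgenic sham arrays, against 11.62 and 11.54 in wild-type TAC and 11.19 in wild-type sham arrays. Transgenic TAC 2 and wild-type TAC 1 were only 0.10 apart. The difference of 0.42 ± 0.14 (1.34-fold, interval 0.11 to 0.73) did not pass over all genes (adjusted p = 0.270). With any 1 array left out it ranged from 0.24 to 0.53. Of 18 alternative settings, 17 kept the result and it passed in 1, without transgenic TAC 2 (0.53). That setting also raised the number of genes past the test. The gap was 0.77 between the sham arrays and 0.24 between the TAC groups. The second Tead1 probe stood at 9.95 and 8.73 in transgenic TAC and 9.14 in transgenic sham arrays, against 8.79 and 8.57 in wild-type TAC and 8.65 in wild-type sham arrays. There the transgenic TAC arrays lay 1.22 apart and transgenic TAC 2 fell among the wild-type arrays, with a difference of 0.60 ± 0.26. The third probe, at 5.28 to 5.49, lay below the filter. The brightest probe has no transcript accession in the annotation, so which part of Tead1 it reads is not known here.

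Tead2, known from early embryos and neural progenitors, differed by 0.72 between the transgenic TAC arrays and by 0.32 between the wild-type TAC arrays. It stood at 7.62 and 8.34 in transgenic TAC and 7.53 in transgenic sham arrays, against 8.26 and 7.93 in wild-type TAC and 7.85 in wild-type sham arrays. Transgenic TAC 2 was the highest of all arrays and transgenic sham the lowest. The difference of -0.18 ± 0.20 did not pass (adjusted p = 0.797, interval -0.65 to 0.28), and without transgenic TAC 1 it was 0.0022.

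Tead3 had 1 probe, at 5.71 and 5.70 in transgenic TAC and 5.93 in transgenic sham arrays, against 5.83 and 5.76 in wild-type TAC and 5.63 in wild-type sham arrays. All but the transgenic sham array lay below the filter, so Tead3 was not among the tested genes. In a fit over every probe of the table its difference was 0.04 (interval -0.16 to 0.24). Tead4, a factor of the trophectoderm and of muscle regeneration, had 4 probes, 2 of them above the filter. The brightest was the flattest of the family, at 6.09 and 6.11 in transgenic TAC and 6.15 in transgenic sham arrays, against 6.09 and 6.10 in wild-type TAC and 6.21 in wild-type sham arrays. Its difference of -0.02 ± 0.09 (adjusted p = 0.970) had an interval of -0.21 to 0.18. The other Tead4 probes lay between 5.16 and 6.13, with differences of -0.18 to 0.04. These levels are close to the array median, where a change in a rare transcript may not be seen.

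**Figure D2:**
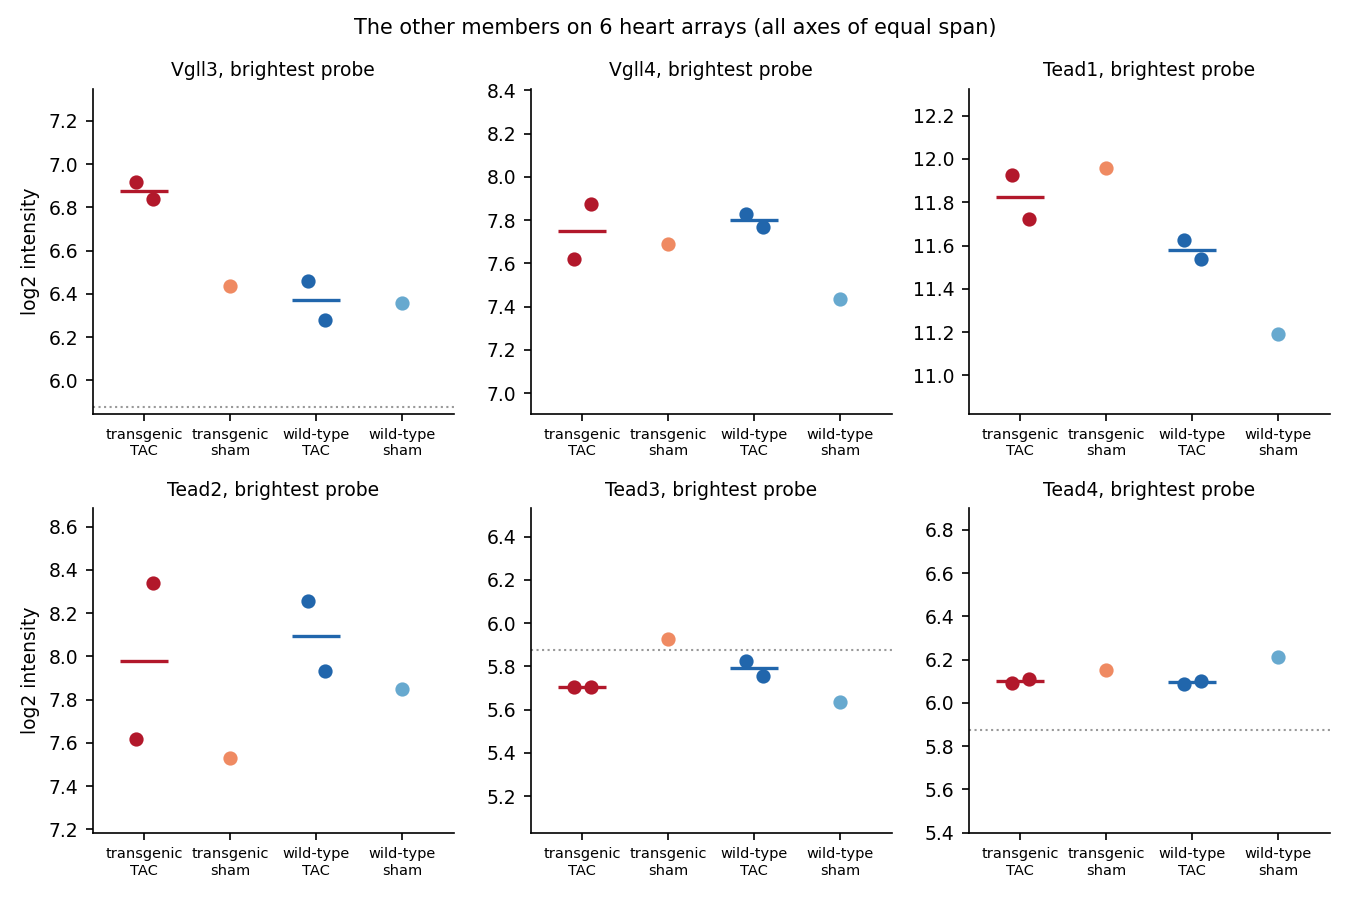
Log2 intensity of the brightest probe of the other 6 members (y axes of equal span) by group (x axis), 1 point per array, with a bar at the mean of the groups of 2 arrays and a dotted line at the intensity filter (5.88) where it falls in the panel. Tead1 separates the genotypes by a narrow margin, Vgll3 is highest in both transgenic TAC arrays, and Tead4 stays between 6.09 and 6.21.

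Between genotypes over both surgeries, none of the 5 tested members other than Vgll2 passed the test, in which 106 of 11166 genes passed (0.949%), 74 higher (0.663%) and 32 lower (0.287%). At an unadjusted p under 0.05 there were 2 of the 5, Tead1 and Vgll3, where 11.5% of all genes reached that level. The genotypes did not overlap for 1 of the 5, Tead1, against 16.1% of all tested genes (7.59% higher and 8.55% lower in transgenic arrays). The difference was positive for 3 of the 5, against 47.6% of all genes.

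**Figure D3:**
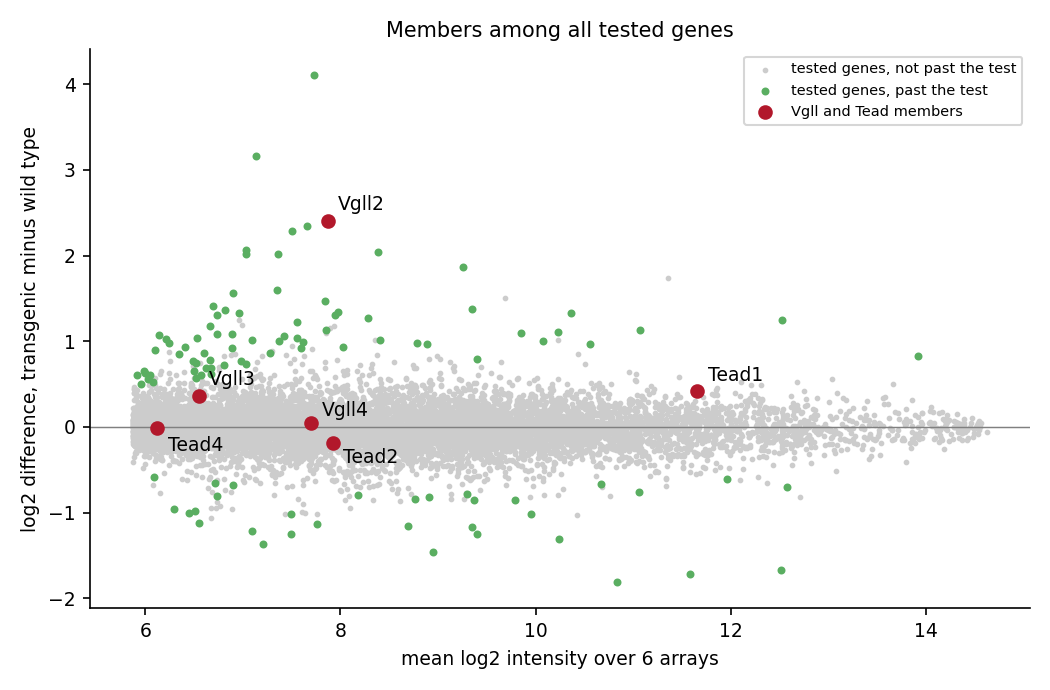
Log2 difference of transgenic minus wild-type arrays (y axis) against mean log2 intensity over 6 arrays (x axis) for the 11166 tested genes, with the 6 tested members in red and the other genes past the test in green. Vgll2 (2.41) lies far outside the cloud, Tead1 (0.42) and Vgll3 (0.36) lie at its upper part, and Vgll4, Tead2 and Tead4 lie within it.

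TAC against sham over both genotypes was not used to choose any member. Vgll2 was above the sham array of its own genotype in 4 of 4 TAC arrays on each of its 3 probes. The 3 probes read the same arrays, so they do not repeat the result. The share of all genes with this order was not counted. On the brightest, TAC minus sham was 1.01 in transgenic and 0.54 in wild-type mice. The difference over both genotypes was 0.77 ± 0.20 (4 TAC against 2 sham arrays, 95% interval 0.32 to 1.22), the largest of the members, but it did not pass over all genes (limma adjusted p = 0.327). It ranged from 0.54 to 1.01 without any 1 array. The second Vgll2 probe gave 0.78 ± 0.18 and the third gave 0.26 ± 0.11.

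The other members moved less after TAC. The differences were 0.35 ± 0.22 for Tead2, 0.23 ± 0.14 for Vgll3, 0.21 ± 0.16 for Vgll4, 0.13 ± 0.15 for Tead1 and -0.08 ± 0.09 for Tead4, with adjusted p between 0.658 and 0.836. None of the 6 tested members passed in limma, where 1 of 11166 genes did (0.00896%, higher after TAC), and only Vgll2 had an unadjusted p under 0.05, which 9.25% of all genes had. The difference was positive for 5 of the 6, against 48.5% of all genes. TAC and sham arrays did not overlap for Tead4 alone, against 16.5% of tested genes (8.38% higher and 8.16% lower after TAC). It was lower in each TAC array (6.09 to 6.11) than in each sham array (6.15 and 6.21), a gap of 0.04, and by the median over its probes the sign turned (0.07).

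**Figure D4:**
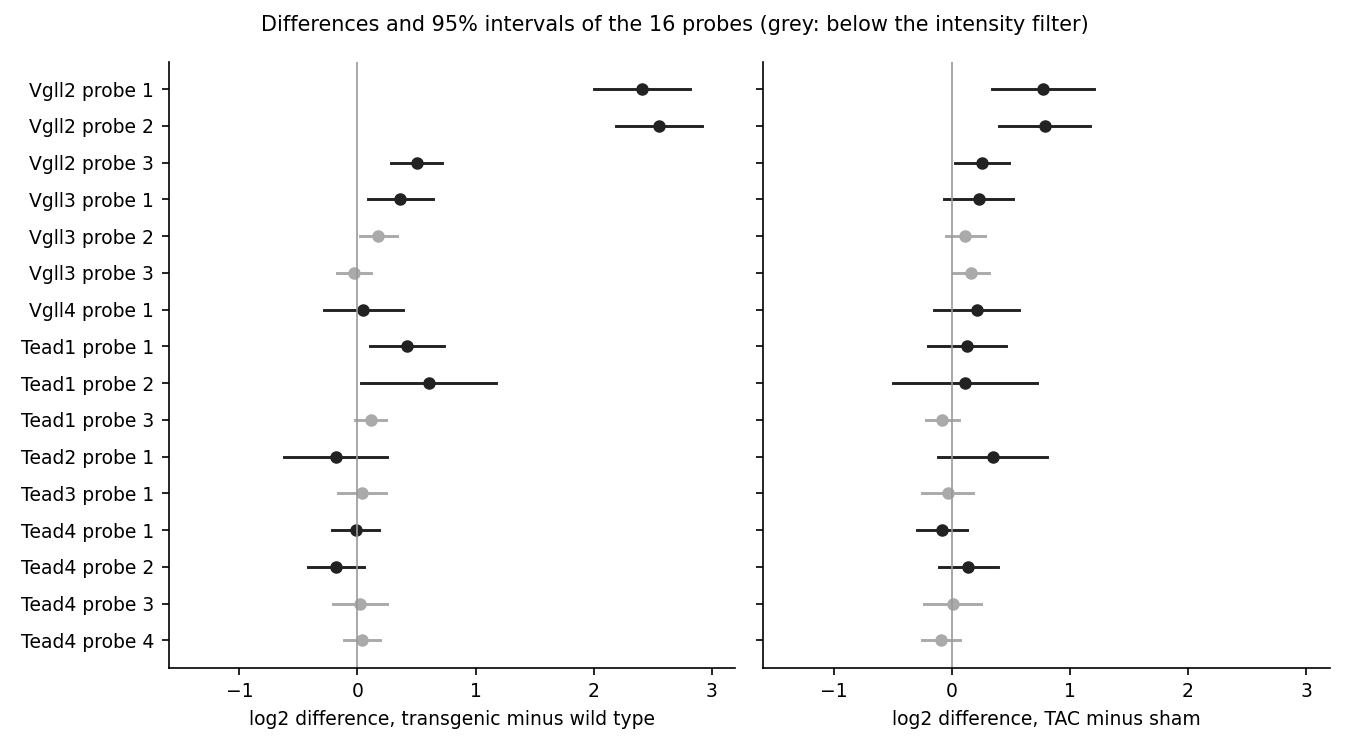
Log2 differences (points) and their 95% intervals (lines) for all 16 probes, from a limma fit over every probe of the table, as transgenic minus wild type (left) and TAC minus sham (right). Black marks probes above the intensity filter and grey those below it. The first 2 Vgll2 probes stand at 2.41 and 2.56 on the left and at 0.77 and 0.78 on the right, and most other intervals span 0.

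Whether TAC moved a member differently in the 2 genotypes was asked by the difference of the TAC responses, transgenic minus wild type. It was 0.47 ± 0.42 for Vgll2, 0.43 ± 0.26 for Vgll3, -0.30 ± 0.36 for Vgll4, -0.53 ± 0.27 for Tead1, 0.21 ± 0.48 for Tead2 and 0.07 ± 0.20 for Tead4. All 6 had an adjusted p of 1.00 in limma, and no gene of 11166 passed (0%), while 183 (1.64%) had an unadjusted p under 0.05. It was positive for 4 of the 6, against 52.3% of all genes. The intervals were wide, such as -0.50 to 1.45 for Vgll2, since each sham group holds 1 array. Both arrays of low Xist enter this contrast with a minus sign, so a difference in sex cannot be told apart from a difference in the TAC response. With Xist as a covariate the value of Vgll2 turned to -0.20.

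Other genes were listed in 5 sets, 4 of genes tied to TEAD factors and 1 of skeletal muscle genes, and of these 103 genes 95 had a probe and 70 were tested. Between genotypes 1 of the 70 passed as higher and 1 as lower, or 2.86% against 0.949% of all genes, and the median difference was 0.03, beside -0.01 over all genes. The higher one belongs to the skeletal muscle set, and in the 4 TEAD sets 1 of 54 tested genes passed, as lower (1.85%). None of the 12 tested partners passed, which included the coactivators Yap1 and Wwtr1 (the gene of TAZ). Yap1 stood at 8.69 and 8.91 in transgenic TAC and 8.74 in transgenic sham arrays, against 8.63 and 8.30 in wild-type TAC and 8.26 in wild-type sham arrays. These did not overlap, by a margin of 0.06, and the difference was 0.39 ± 0.16 (adjusted p = 0.390). Wwtr1 was at 0.25 ± 0.17, the myogenic factor gene Mef2c at 0.27 ± 0.14 and the coactivator gene Ncoa3 at 0.17 ± 0.11, none past the test.

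None of the 18 tested genes of the Hippo kinase core and its upstream regulators passed, with 8 positive and a median of -0.05. The smallest p belonged to Mob1b, a kinase activator of the pathway (0.47 ± 0.12, adjusted p = 0.147), then to the phosphatase gene Ptpn14 (-0.29 ± 0.15) and the kinase gene Taok2 (0.18 ± 0.11). Of 17 tested YAP/TAZ-TEAD target genes known from cultured cells none passed, with 13 positive and a median of 0.14. Crim1 (0.40 ± 0.12, adjusted p = 0.200) and Gadd45a (0.47 ± 0.23) led. The growth factor gene Ccn2 (0.31 ± 0.24), Ankrd1 (0.06 ± 0.09) and Ccn1 (-0.04 ± 0.23) did not pass either. After TAC 14 of the 17 were higher, with a median of 0.30 beside -0.01 over all genes and none past the test. Fibroblast markers moved with them: 9 of 10 tested were higher after TAC, with a median of 0.44, and their summed intensity was 20675 to 28877 in TAC and 17921 to 19636 in sham arrays, with Postn below the filter. Their part in the shift of the targets was not tested. Ccn2 stood at 1.09 ± 0.25 and Ankrd1 at 0.29 ± 0.10 there.

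Among 9 tested muscle genes with MCAT elements in their promoters, 1 passed between genotypes, and downward. Acta2, smooth muscle actin, fell by 1.67 ± 0.23 (adjusted p = 0.0118), with 11.40 and 11.77 in transgenic TAC and 11.87 in transgenic sham arrays, against 13.91 and 13.13 in wild-type TAC and 13.01 in wild-type sham arrays. Its adjusted p was 0.201 by the median over its 6 probes, of which 2 lie below the filter, and 0.0924 without both arrays of low Xist. The summed intensity of 10 smooth muscle and pericyte markers, Acta2 among them, was 8163 to 12274 in transgenic and 17768 to 26036 in wild-type arrays. Acta2 was itself the largest part of that sum in wild-type arrays, so the sum is not independent of its fall. Cnn1 lay below the filter. All 9 tested markers had a negative difference, with a median of -0.45, and only Acta2 passed. The part of these cells in the result was not tested. In whole hearts fewer cells of a type and less RNA per cell cannot be told apart. Myocd, the cardiac and smooth muscle coactivator of SRF (-0.73 ± 0.16, adjusted p = 0.0988), Acta1, skeletal alpha-actin (-0.41 ± 0.08, adjusted p = 0.0555), Ckm, muscle creatine kinase (-0.33 ± 0.10), Myh7, slow myosin (1.50 ± 0.59), and Nppb, B-type natriuretic peptide (0.14 ± 0.08), did not pass. Acta1 did pass with the filter at the 75th percentile (adjusted p = 0.0450), with no filter (0.0360), over all probes (0.0261) and without transgenic TAC 2 (0.0301). Without that array Myocd had 0.0200 and Myh7 0.0498. After TAC over both genotypes, Acta1 rose (1.09 ± 0.08, adjusted p = 0.00403), the only gene past that test, and lost the call without either sham array or either wild-type TAC array (adjusted p 0.0798 to 0.238), without the intensity trend (0.121), with Xist as a covariate (0.0758) and without both arrays of low Xist (1.00). Nppb (0.72 ± 0.09) and Myh7 (1.85 ± 0.62) did not pass there, though Nppb did with the filter at the 75th percentile (adjusted p = 0.0344), with no filter (0.0152), over all probes (0.00820) and without transgenic TAC 1 (0.0208).

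Since VGLL2 is known from skeletal muscle, genes of that tissue were set beside it. Of 32 listed, 29 had a probe and 18 were tested, of which 1 passed between genotypes. Myl1, a myosin light chain of fast skeletal fibres, rose by 0.83 ± 0.10 (adjusted p = 0.00855), with 14.41 and 14.43 in transgenic TAC and 14.18 in transgenic sham arrays, against 13.50 and 13.39 in wild-type TAC and 13.63 in wild-type sham arrays. A second Myl1 probe gave 1.38 and the last, below the filter, 0.08. The call was lost without wild-type TAC 1 (adjusted p = 0.0657), without wild-type TAC 2 (0.0731), without both arrays of low Xist (0.583) and by the median over its probes (0.0883).

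No other gene of the skeletal muscle list passed, and 10 of the 18 differences were positive. Mybpc2, a fast myosin-binding protein, was at 0.84 ± 0.21 (adjusted p = 0.131, and 0.0361 without transgenic TAC 1), whereas Pvalb, parvalbumin of fast fibres, was at -0.60 ± 0.18 (adjusted p = 0.200, and 0.0218 without transgenic TAC 1). The myogenic factor genes Myod1, Myf5 and Myf6 lay below the filter on average, at 5.36 to 5.76 on all arrays, and Myog was at 0.06 ± 0.10. Among fast fibre markers Myh1, Myh4, Tnnt3 and Tnnc2 lay below the filter. The summed intensity of 11 fast fibre markers was 19619 to 23112 in transgenic and 11682 to 13518 in wild-type arrays. Without Myl1, which made up most of it, the sum over the other 10 was 945 to 1094 in transgenic and 839 to 912 in wild-type arrays. Without Mybpc2 as well the direction turned, at 540 to 588 in transgenic and 618 to 648 in wild-type arrays over the other 9.

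**Figure D5:**
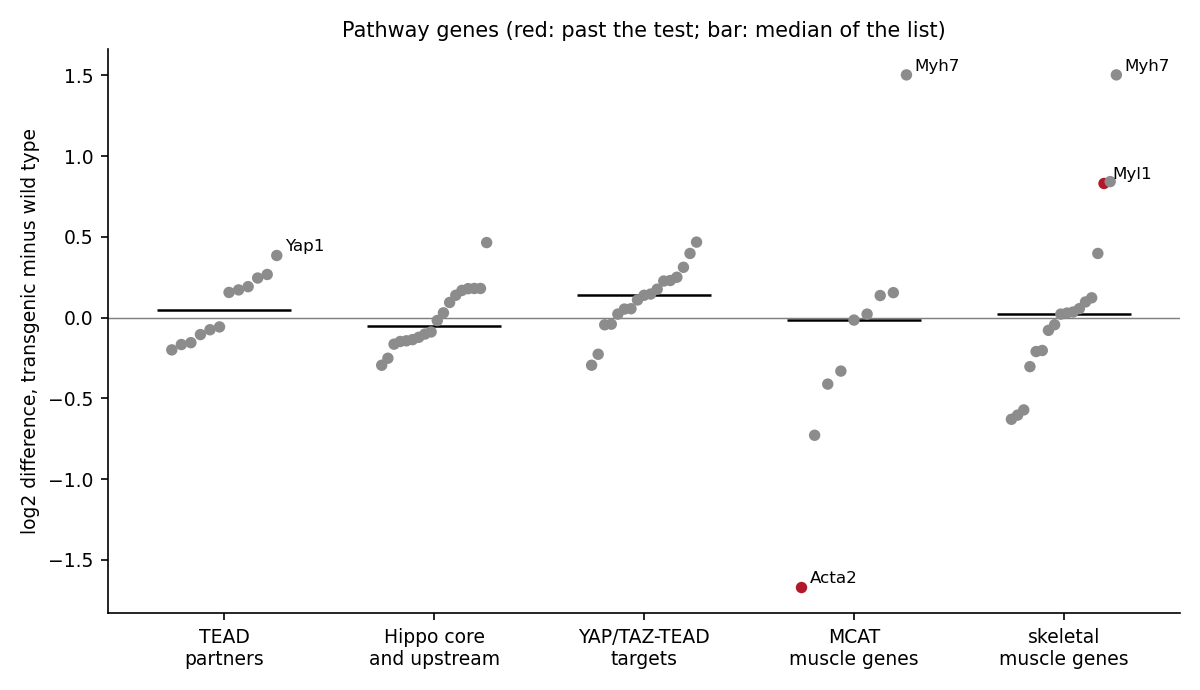
Log2 difference of transgenic minus wild-type arrays (y axis) for the tested genes of 5 sets (x axis), each point a gene, red where past the test, with a bar at the median of the set. Acta2 (-1.67) and Myl1 (0.83) are the genes past the test, and the medians of the sets lie between -0.05 and 0.14. Amotl2, Myh7, Ptpn14 and Tnnc1 are each plotted in 2 sets.

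Some genes followed the 6 arrays much as Vgll2 did. Likeness was Pearson's r with the brightest Vgll2 probe over the 6 arrays, taken over 883 tested genes whose highest and lowest array differed by at least 1 on the log2 scale. It describes these arrays, which fall into 2 genotypes, and carries no test. The most alike were Kif5c, a kinesin heavy chain (r = 0.997), Prkcd, protein kinase C delta (0.993), Tmem130 (0.989), Abra, an actin-binding protein of striated muscle (0.988), Mthfd2, an enzyme of mitochondrial folate metabolism (0.988), and Ckmt1, a mitochondrial creatine kinase (0.987). Kif5c stood at 7.39 and 7.71 in transgenic TAC and 7.10 in transgenic sham arrays, against 6.24 and 5.96 in wild-type TAC and 5.76 in wild-type sham arrays, in the same order as Vgll2. Abra stood at 11.76 and 11.94 in transgenic TAC and 11.20 in transgenic sham arrays, against 10.83 and 10.37 in wild-type TAC and 10.31 in wild-type sham arrays. The most opposite were the phosphatase gene Dusp23 (r = -0.994), Wfikkn2 (-0.992) and the amino acid transporter gene Slc38a3 (-0.989). Among the 883, 30 had r above 0.9 and 42 had r below -0.9, and 11 ranked the arrays exactly as Vgll2 did.

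Within the family, r with the brightest Vgll2 probe was 0.998 and 0.966 for its other probes and 0.888, 0.905 and 0.05 for those of Vgll3, the last 2 of which lie below the filter. It was 0.776, 0.585 and 0.561 for Tead1, 0.374 for Vgll4, -0.03 for Tead2, 0.09 for Tead3 and -0.40 to 0.21 for Tead4.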

How the data were processed

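Array values were intensities on a linear scale, 1 per probe and array, deposited by the authors as a single table. Their sorted columns differed by at most 0.0064 (log2) from the mean column, the pattern quantile normalization leaves. The labels name no software, background correction or normalization. No background was subtracted, the 12 values under 32 were raised to 32, and log2 followed. Of 45281 probes, 34885 had 1 gene symbol in GEO's platform annotation, 18 had several and 10378 had none. Identifiers of 34818 probes matched a RefSeq gene table (GRCm38.p6), used for names only. A gene was read on its brightest probe (19053 genes), and those above the 50th percentile of probes with 1 symbol were tested (11166). The log2 intensities were fitted by lmFit, then moderated by eBayes along a trend with intensity (limma 3.58.1 in R 4.3.3). Adjusted p-values are Benjamini-Hochberg values over every tested gene, and the threshold was 0.05. A model of surgery plus genotype gave both main comparisons and a model with their interaction the difference of the TAC responses. Errors are standard errors and intervals are 95% intervals of these fits. The number of arrays limits the precision. The steps were tested on simulated data.

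Named were all members, preset genes of the lists, list genes past a test and the 3 with the smallest p per set between genotypes. The skeletal muscle genes were taken as 1 set. Lats2, also preset, lay below the filter at 5.31 to 5.54. Likeness named the 6 highest and 3 lowest r. The members, lists and settings were chosen with earlier results of these data known. TAC arrays carry the numbers 1 and 2 in both genotypes. Over tested genes the deviations of same-numbered arrays correlated at r = -0.03, and nothing in the labels pairs them. Stk3, Mef2a, Asap1, Tnnt2, Adra1a, Myh2, Myh7b and Myh3 were not analysed here. Marker sums of the other cell types are in the closing section.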

Additional observations from a re-analysis of the deposited data

Results flagged for a closer look

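On 3 of the 16 probes both TAC arrays of transgenic mice lay on one side of their sham array and both TAC arrays of wild-type mice on the opposite side. The share of all probes with this pattern was not counted, so it is not known whether 3 of 16 is unusual. The brightest Tead1 probe had TAC minus sham at -0.13 in transgenic and 0.39 in wild-type mice, a difference of -0.53. Tead3 had -0.22 in transgenic and 0.16 in wild-type mice, a difference of -0.38 on a probe below the intensity filter. The third Tead4 probe, also below it, had 0.25 in transgenic and -0.23 in wild-type mice, a difference of 0.48. In the limma fit over every probe of the table, all 3 differences had an adjusted p of 1.00. Each rests on 1 sham array per genotype, and sex, as read from Xist, cannot be told apart from the difference. The second Tead1 probe gave a difference of 0.17, opposite in sign to the brightest. No group has the 4 arrays that a check for outlying samples needs.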

How the results depend on the processing

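The difference of Vgll2 between genotypes stayed between 2.25 and 2.60 under all 18 alternatives (2.25 to 2.57 without 1 array). The number of genes past that test, 106, was 49 by the median over probes, 44 with the filter at the 75th percentile, 25 with the TAC arrays alone (61 with the replicate block), 54 with Xist as a covariate, 0 without the arrays of low Xist and 24 to 474 without 1 array (474 without transgenic TAC 2, 24 without either sham array, 30 and 32 without wild-type TAC 1 and 2). The 1 gene past the TAC test became 2 with no filter, with the 75th percentile, at the probe level and with the replicate block, 0 without the trend, with Xist and without the arrays of low Xist, and 0 to 37 without 1 array (37 without transgenic TAC 1). The 0 for the difference of the TAC responses became 5 with Xist and 0 to 1 without 1 array. At a threshold of 0.1, 4 pathway genes passed between genotypes in place of 2, and still none of the 5 tested members other than Vgll2. The TAC numbers share only a number. With them as a replicate block 111 genes passed between genotypes, Myocd (adjusted p = 0.0377) and Myh7 (0.0267) among them, Vgll2 stood at 0.77 after TAC, and Myh7 passed the TAC test (2.85, adjusted p = 0.0324).

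Some signs turned. Between genotypes, the TAC arrays alone, with or without the replicate block, gave -0.0506 for Vgll4, 0.00542 for Tead4, 0.25 for Ccn1 and -0.0251 for Ankrd1. Without the arrays of low Xist, Vgll4 was -0.0823, Tead4 0.0112, Ncoa3 -0.0299, Ccn1 0.20, Ccn2 -0.0380, Ankrd1 -0.11 and Myh7 -0.0208. Ccn1 was 0.11 by the median over probes. Ranges without 1 array were -0.0506 to 0.15 for Vgll4, -0.41 to 0.00222 for Tead2, -0.0275 to 0.00542 for Tead4, -0.32 to 0.25 for Ccn1, -0.00102 to 0.55 for Ccn2, -0.0251 to 0.127 for Ankrd1 and -0.0301 to 0.16 for Myog. After TAC, Tead4 was 0.0701 by the median over probes, and Tead1 ranged from -0.13 to 0.39 without 1 array. For the difference of the TAC responses, the median over probes gave 0.17 for Tead1, Xist as a covariate gave -0.20 for Vgll2 and -0.42 for Tead2, and Tead2 ranged from -0.15 to 0.57 without 1 array. The cause of these turns was not tested. The lowest Spearman rho among the 6 genes most like Vgll2 was 0.943, where the lowest r was 0.987. Transgenic over wild type of the fast fibre sum was 1.74 over all 11 markers, 1.14 without Myl1 and 0.890 without Myl1 and Mybpc2, both choices made after seeing the data. Probes near the array median limit what can be seen of Tead3, Tead4 and the dimmer probes of Vgll3 and Tead1.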

Other observations

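Summed intensities of the other marker lists were as follows. Fibroblast markers (11 genes, Postn below the filter) ran from 19636 to 28877 in transgenic and from 17921 to 26482 in wild-type arrays, and macrophage markers (7 genes) from 3488 to 3840 in transgenic and from 2539 to 3479 in wild-type arrays. Endothelial markers (8 genes, Kdr and Fabp4 below the filter) ran from 6181 to 9198 in transgenic and from 7450 to 8840 in wild-type arrays, and atrial markers (5 genes) from 15881 to 24669 in transgenic and from 10727 to 29199 in wild-type arrays. By surgery, the atrial sum was 21241 to 29199 in TAC and 10727 to 15881 in sham arrays, and Nppa made up most of it. Nppa stood at 14.33 to 14.47 in TAC arrays, 13.87 in transgenic sham and 13.30 in wild-type sham. Sln, Myl7 and Myl4 followed it only in part, and were highest in wild-type TAC 1 (10.50, 9.09 and 12.48). They were also above sham in wild-type TAC 2 (7.35, 6.90 and 9.84, against 5.95, 5.44 and 8.85 in wild-type sham). In transgenic TAC 2 they stood at 8.09, 7.15 and 10.80, above transgenic sham. In transgenic TAC 1 (6.04, 5.50 and 9.03) they were lower than in transgenic sham (6.64, 5.95 and 9.46). The cause was not tested. Adipocyte, mesothelial and neuronal lists had 2, 1 and 2 genes above the filter. Of these lists only the macrophage sum did not overlap between genotypes, by a narrow margin, and its part in the values of any member was not tested.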
